A study of Homo sapiens with 30 samples.

Results

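The zinc finger genes of chromosome 19 were the 250 protein-coding genes on that chromosome of GRCh38 whose symbol is ZNF followed by a number, out of 20037 protein-coding genes on chromosomes 1 to 22, X and Y. They were compared with the other 1201 protein-coding genes of chromosome 19 and with the 267 ZNF genes on other chromosomes. Each gene was given a window from 1 kb before to 1 kb after its annotated body, and a peak belonged to it where at least 1 bp overlapped the window. A gene had an end peak where a peak reached within 1 kb of either end of the gene.

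Most ZNF proteins of chromosome 19 carry a KRAB domain in front of a row of C2H2 zinc fingers. The fingers bind DNA, often inside transposable elements, and the KRAB domain recruits the corepressor TRIM28 and with it the methyltransferase SETDB1, which lays down the repressive histone mark H3K9me3. The genes arose by repeated tandem duplication and sit side by side in clusters. Their own bodies, above all the far exon that encodes the fingers, are known to carry H3K9me3, which the family member ZNF274 helps to place.

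Accessible DNA, which the transposase Tn5 cuts and tags in the OmniATAC-seq assay, was sequenced from 50000 cells per library of H1, an established human embryonic stem cell line of wild-type genotype. The labels give 30 libraries in 10 groups of 3 biological replicates, and 1 peak list per group was used. The undifferentiated cells (hPSC) were in pluripotency medium on day 0. Definitive ectoderm (DE, day 1) came from 24 hours in CDM2 medium with the TGF-beta receptor inhibitor A8301, the MEK inhibitor Trametinib at 250 nM, the WNT secretion inhibitor C59 and the BMP receptor inhibitor LDN193189 at 100 nM. Anterior neural ectoderm (aNE, day 2) was made from DE with A8301, LDN193189, C59 and the ROCK inhibitor Thiazovivin. Posterior neural ectoderm (pNE, day 2) was made from DE with A8301, LDN193189, the retinoic acid receptor agonist TTNPB at 50 nM, FGF2 at 20 ng per mL, the tankyrase inhibitor XAV939 and Thiazovivin. Both day 2 populations were then carried to day 4 in telencephalon (T), midbrain (M) or hindbrain (H) medium, which gave aNE_T, aNE_M, aNE_H, pNE_T, pNE_M and pNE_H. The labels name XAV939, LDN193189 and FGF2 in the first forebrain medium, and the composition of the other day 4 media is not given in the sources used here. Beyond 2 days the posterior protocol plated 150000 cells per square cm and the anterior one 75000, so origin and plating density cannot be told apart at day 4.

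The lists give the position of each peak and no height, so a difference below compares lists and not libraries, no test across replicates was possible, and the number of reads behind a peak is unknown. List sizes without scaffolds ran from 167792 peaks in aNE to 313095 in pNE_H. Chromosome 19 took 2.93% of the hPSC peaks and 2.00% of the pNE_H peaks. Gene ends of the germ layer markers mostly did not separate the populations: all 5 neural, all 6 posterior, all 4 mesoderm and all 4 endoderm markers had an end peak in every list. The pluripotency markers had one at 7 of 7 genes in hPSC and DE and at 5 or 6 of 7 later, and POU5F1, the gene of OCT4, had one in hPSC and DE only. Anterior markers had one at 5 of 5 genes except in pNE_M (4), surface ectoderm markers at 3 of 4 in DE, aNE and aNE_T and at 4 elsewhere, and neural crest markers at 2 of 3, with TFAP2B added in pNE_H. Chromosome 19 held no peak beyond base 58526779 in any list. The 4 protein-coding genes past that base, TRIM28, CHMP2A, UBE2M and MZF1, therefore have no peak, and a gene without one is below only a gene for which the lists hold none.

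The promoters of 8 ZNF genes show the contrasts on which the results turn. They are RefSeq sequences of GRCh38.p14 from 250 bases before to 50 bases after the annotated start, 5′ to 3′ on the strand of the gene. Capitals mark the letters CCGGAAG or the reverse complement CTTCCGG, the core that factors of the ETS family recognise. The first 5 come from 1 cluster of near relatives in 19p12 and were chosen after their values were seen. ZNF91 (chr19:23395422-23395721, minus strand), a repressor of SVA retrotransposons, and ZNF675 (chr19:23687163-23687462, minus strand) had a peak on the promoter in all 10 lists. ZNF208 (chr19:22010894-22011193, minus strand), ZNF257 (chr19:22052234-22052533, plus strand) and ZNF492 (chr19:22634074-22634373, plus strand) had one in none.
ZNF91: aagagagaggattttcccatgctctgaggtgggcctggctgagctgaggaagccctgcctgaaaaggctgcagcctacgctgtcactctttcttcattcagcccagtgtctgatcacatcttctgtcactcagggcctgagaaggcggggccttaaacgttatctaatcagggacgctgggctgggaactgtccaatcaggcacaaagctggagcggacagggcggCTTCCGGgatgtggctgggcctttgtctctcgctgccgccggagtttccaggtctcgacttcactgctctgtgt
ZNF675: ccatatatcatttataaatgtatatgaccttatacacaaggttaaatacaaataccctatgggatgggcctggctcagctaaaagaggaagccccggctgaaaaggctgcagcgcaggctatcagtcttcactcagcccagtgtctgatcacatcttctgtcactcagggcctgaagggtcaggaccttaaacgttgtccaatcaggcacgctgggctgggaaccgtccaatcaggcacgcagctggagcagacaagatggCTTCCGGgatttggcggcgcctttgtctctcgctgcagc
ZNF208: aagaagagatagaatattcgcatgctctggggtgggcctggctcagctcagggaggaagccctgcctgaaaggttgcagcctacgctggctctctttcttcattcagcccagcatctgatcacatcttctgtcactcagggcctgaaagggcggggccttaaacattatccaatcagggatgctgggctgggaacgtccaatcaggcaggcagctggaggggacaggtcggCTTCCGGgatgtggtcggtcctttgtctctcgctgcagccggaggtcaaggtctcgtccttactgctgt
ZNF257: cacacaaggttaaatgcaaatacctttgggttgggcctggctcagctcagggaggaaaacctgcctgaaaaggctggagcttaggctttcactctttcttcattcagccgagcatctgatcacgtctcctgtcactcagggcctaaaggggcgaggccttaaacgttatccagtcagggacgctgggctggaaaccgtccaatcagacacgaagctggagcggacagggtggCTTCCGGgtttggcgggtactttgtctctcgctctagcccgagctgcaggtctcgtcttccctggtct
ZNF492: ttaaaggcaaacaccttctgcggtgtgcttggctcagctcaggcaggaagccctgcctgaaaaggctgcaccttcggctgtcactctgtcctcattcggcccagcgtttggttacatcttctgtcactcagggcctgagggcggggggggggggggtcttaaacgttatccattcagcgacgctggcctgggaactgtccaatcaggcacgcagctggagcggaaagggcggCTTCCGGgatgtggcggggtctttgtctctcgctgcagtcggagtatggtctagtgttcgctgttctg

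The other 3 are examples of members whose outermost promoter entry lay in a peak of some lists and not of others. ZNF536, ZNF229, ZNF560 and ZNF880 also had this property and are not printed. The start of the ZNF541 entry lies 161 bases from the annotated gene end. The promoters of ZNF556 (chr19:2867085-2867384, plus strand) and of ZNF541 (chr19:47573099-47573398, minus strand), which encodes a germ cell protein of meiosis, met a peak in hPSC alone. The outermost of the 3 promoters of ZNF565 (chr19:36245879-36246178, minus strand) met one in hPSC and aNE, while its other 2 promoters, inside the gene, met one in all 10 lists. None of the 3 holds the ETS letters, but the ZNF880 entry, in a peak in 9 lists, does.
ZNF556: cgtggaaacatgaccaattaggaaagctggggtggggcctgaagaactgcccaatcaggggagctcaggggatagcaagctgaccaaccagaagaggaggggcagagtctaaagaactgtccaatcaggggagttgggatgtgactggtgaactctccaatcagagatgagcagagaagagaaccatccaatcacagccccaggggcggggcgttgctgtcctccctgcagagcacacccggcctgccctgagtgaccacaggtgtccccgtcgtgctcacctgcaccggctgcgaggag
ZNF541: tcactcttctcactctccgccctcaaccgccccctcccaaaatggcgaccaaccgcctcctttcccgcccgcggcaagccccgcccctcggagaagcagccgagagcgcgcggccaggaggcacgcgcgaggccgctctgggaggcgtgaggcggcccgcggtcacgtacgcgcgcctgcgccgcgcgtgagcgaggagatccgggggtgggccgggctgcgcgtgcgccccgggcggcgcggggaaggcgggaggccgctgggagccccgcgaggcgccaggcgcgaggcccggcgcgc
ZNF565: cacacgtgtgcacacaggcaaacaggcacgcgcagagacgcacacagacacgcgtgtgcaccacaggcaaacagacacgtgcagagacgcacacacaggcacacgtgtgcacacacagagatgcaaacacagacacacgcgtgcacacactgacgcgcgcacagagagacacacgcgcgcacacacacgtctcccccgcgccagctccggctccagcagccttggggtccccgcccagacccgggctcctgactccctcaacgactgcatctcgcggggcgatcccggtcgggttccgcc

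The ZNF91 promoter and the ZNF208 promoter shared 264 of 300 bases (88.0%) in a global alignment, and both carry CTTCCGG just before the start. ZNF257 shared 81.7% of bases with ZNF91, ZNF492 shared 82.3% and ZNF675 shared 74.7%. ZNF675, with its peak in every list, thus had a lower identity to ZNF91 over these 300 bases than the 3 promoters without one. Its window is placed differently, however. CTTCCGG begins at position 11 from the annotated start in ZNF675, at −24 in ZNF91 and at −19 or −18 in the 3 others. The identity therefore also depends on where the start is annotated. Over all 271 promoter entries of the ZNF genes of chromosome 19 the median identity to ZNF91 was 59.7%. Apart from ZNF91, 24 promoters reached at least 70% identity, a cut-off chosen after the values were seen. Of these, 19 lay in a peak in all 10 lists, 5 in none and 0 in some. The 19 spanned 72.3% to 87.0% identity and included ZNF254, ZNF431, ZNF43, ZNF85 and ZNF93, the last a repressor of LINE-1 elements. The 5 without a peak spanned 77.0% to 88.0% and were ZNF208, ZNF726, ZNF492, ZNF257 and ZNF723. All of these but ZNF726 lie in a single stretch of 1.06 Mb described below, so they are not separate cases. Whether reads could be placed in that stretch as well as next to it was not tested. CCGGAAG stood in all 5 promoters without a peak and in 14 of the 19 with one. The median number of CpG dinucleotides was 13 in the 5 and 10 in the 19.

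Across the family, 41.0% of promoter entries (111 of 271) held CCGGAAG on either strand, against 13.2% of other chromosome 19 coding promoters, 28.4% of ZNF promoters on other chromosomes and 10.3% of all 35116 promoter entries. Its place was also narrower. The first base of the match lay within 50 bases of the start in 77.2% of the 123 matches in the family and in 50.7% of those in all promoters. The 271 entries come from 219 genes of a family that grew by duplication, and some entries overlap or repeat. Entries and matches are therefore not separate cases. The CCAAT box, bound by NF-Y, stood in 49.8% of family promoters and 35.6% of other chromosome 19 ones. The GC box GGGCGG, bound by SP factors, stood in 64.9% and 65.9%, and TATAAA in 2.58% and 7.13%. All motifs were sought on both strands and counted once per promoter, and matches of different motifs could overlap. Promoter entries with a peak in all 10 lists and in none held the ETS letters in 43.0% of 235 and 45% of 20 cases, while 1 of the 16 that varied between lists (6.25%) held them. The 235, 20 and 16 entries come from 203, 19 and 10 genes. Some of the 16 overlap each other, so they are not separate cases and no link between the letters and variation is read from them. Between the same sets the median CpG number was 21, 10 and 15.5. A match describes the letters only, and no binding was measured.

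At the level of whole genes, an end peak was nearly always present in every list or in none. Of the 250 genes, 212 (84.8%) had an end peak in all 10 lists, 31 (12.4%) in none and 7 (2.8%) in some, against 75.5%, 11.8% and 12.7% of all protein-coding genes. Other chromosome 19 genes split into 71.7%, 15.3% and 13%. The ZNF genes on other chromosomes split into 88.4%, 7.12% and 4.49%. The share with an end peak was 86.8% in hPSC (217 genes), 86.8% in DE, 86.4% in aNE, 85.6% in pNE, 86.8% in aNE_T, 85.6% in aNE_M, 86.4% in aNE_H, 85.6% in pNE_T, 86.0% in pNE_M and 87.2% in pNE_H (218 genes). These values differ by at most 4 genes. The Wilson 95% interval at the median share of 86.4% was 81.6% to 90.1%. The interval covers the sampling of genes only. Every list scores the same genes, so it does not measure differences between lists.

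Single steps moved very few members. From hPSC to DE, ZNF444 gained an end peak and ZNF556 lost its own, against 2.29% of all coding genes that gained and 1.72% that lost. From DE to aNE no member gained one (background 0.669%) and ZNF814 lost one (3.61%). From DE to pNE, ZNF536 gained one (1.56%) and ZNF229, ZNF541, ZNF600 and ZNF814 lost theirs (3.38%). Between the day 2 populations, ZNF536 had an end peak in pNE but not in aNE (2.41%), and ZNF229, ZNF541 and ZNF600 had one in aNE but not in pNE (1.29%). A lost or gained end peak here refers to the outermost annotated ends. In these steps ZNF814 and ZNF541 lost a peak at the far end, opposite the start. Over the 10 lists ZNF541 had a far-end peak in 6 and a start peak in 1, and ZNF814 had them in 5 and 1. These 7 genes, ZNF556, ZNF536, ZNF229, ZNF541, ZNF600, ZNF444 and ZNF814, are all the members whose end peak varied. Promoter entries inside a gene could vary without it. The only entry of ZNF560 lay in a peak in hPSC and pNE_T alone, and that of ZNF880 in every list but aNE. Both genes had an end peak in no list.

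Of the 7, ZNF444 had an end peak in every list but hPSC, and ZNF600 in 7 lists. ZNF536, a large gene known as a repressor of neuronal differentiation, had a peak within 1 kb of its outermost annotated start in pNE, aNE_T, aNE_H and pNE_H, while a further annotated promoter inside it (chr19:30227638-30227937) lay in a peak in all 10 lists. The only promoter entries of ZNF814 and of ZNF444 lie inside the gene, and both were also in a peak in all 10 lists. ZNF229 had a single peak at its start, of 274 bp in hPSC, 179 bp in DE, 125 bp in aNE, 160 bp in aNE_T, 132 bp in pNE_T and 189 bp in pNE_H, and no peak in the other 4 lists. All 6 peaks were narrow, and lists of both origins were among those with and those without them. ZNF556 had 431 bp in peaks in hPSC, 274 bp in DE and 281 bp in aNE, and 145 to 214 bp in the other 7 lists. Its hPSC value was the highest, and the second peak of that list was the one on the printed promoter.

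The peak at a gene end was mostly a peak at the start. RefSeq promoter entries gave the strand of 219 members. A peak lay within 1 kb of the start in 85.8% to 87.2% of these over the lists, and within 1 kb of the far end in 6.85% (pNE) to 11.4% (hPSC). Among the other chromosome 19 genes the start had a peak in 73.1% to 78.1% and the far end in 32.0% to 41.8%. The ZNF genes on other chromosomes lay between at the far end, with 15.1% to 22%. The median over lists of the far-end difference between members and other chromosome 19 genes was −28.1 percentage points (95% Newcombe interval −32.3 to −22.9 at the median shares). Far ends of members rarely touch another gene: 12 of 219 (5.48%) had another coding gene end within 1 kb, against 25.6% among the other genes. With only the far ends that stood alone, the median share was 7% for members and 29.8% for the others, so the difference remained there. The coding genes within the clusters had a far-end peak at 22.2% to 33.3%.

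**Figure D1:**
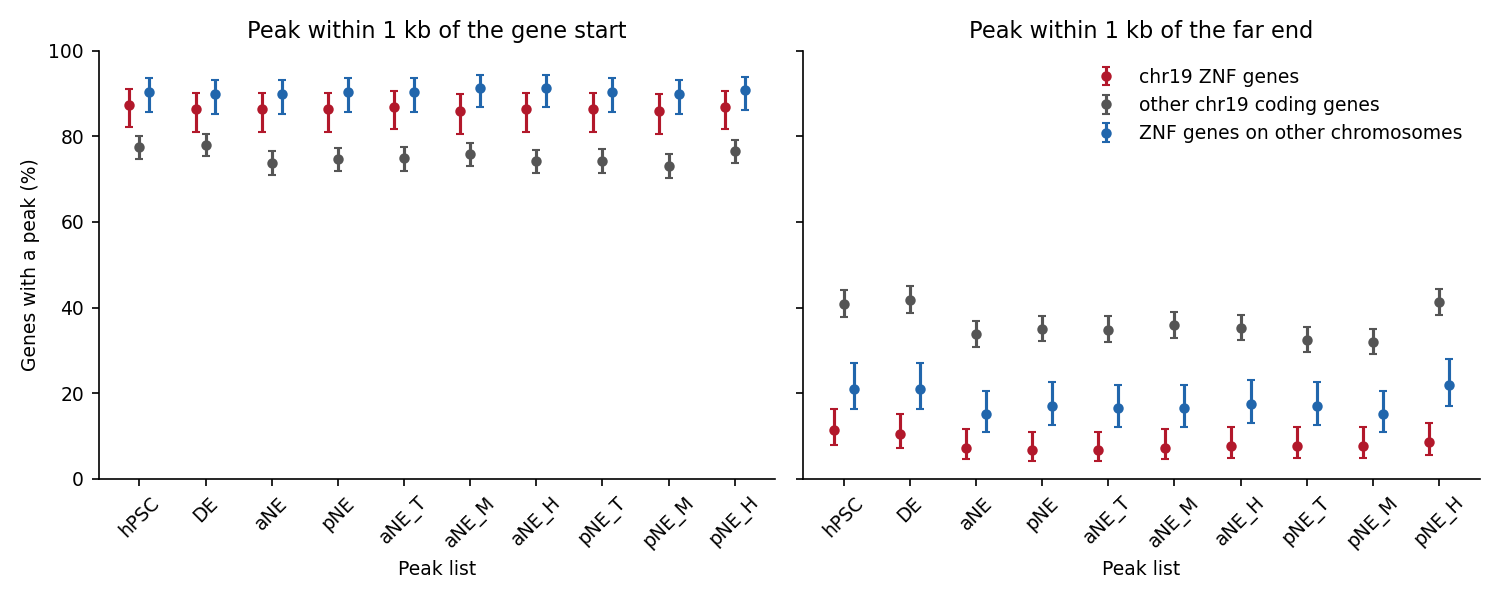
Share of genes (%, y axis) with a peak within 1 kb of the start (left) or of the far end (right) in each of the 10 peak lists (x axis). Points are shares and bars are Wilson 95% intervals over genes. The chr19 ZNF genes lie at 85.8% to 87.2% at the start and at 6.85% to 11.4% at the far end, where the other chr19 genes lie at 32.0% to 41.8%.

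The far end of a typical KRAB zinc finger gene holds the exon of the fingers. Peaks in 10 equal steps of the gene body, from start to far end, were counted by peak midpoint over genes of 10 to 50 kb. In the first step a median of 66.5% of the 170 members of that length had a midpoint, and 51.3% of 504 other chromosome 19 genes did. In the last step the shares were 2.06% and 24.4%. Between the first and the last step the medians of members lay at 3.24% to 7.06% and those of the other genes at 15.8% to 20.8%. In members the last step had the lowest median of the 10, and in the other genes it was the second highest after the first. The 134 ZNF genes of that length on other chromosomes lay between members and other genes, at 59.7% in the first step and 9.70% in the last.

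**Figure D2:**
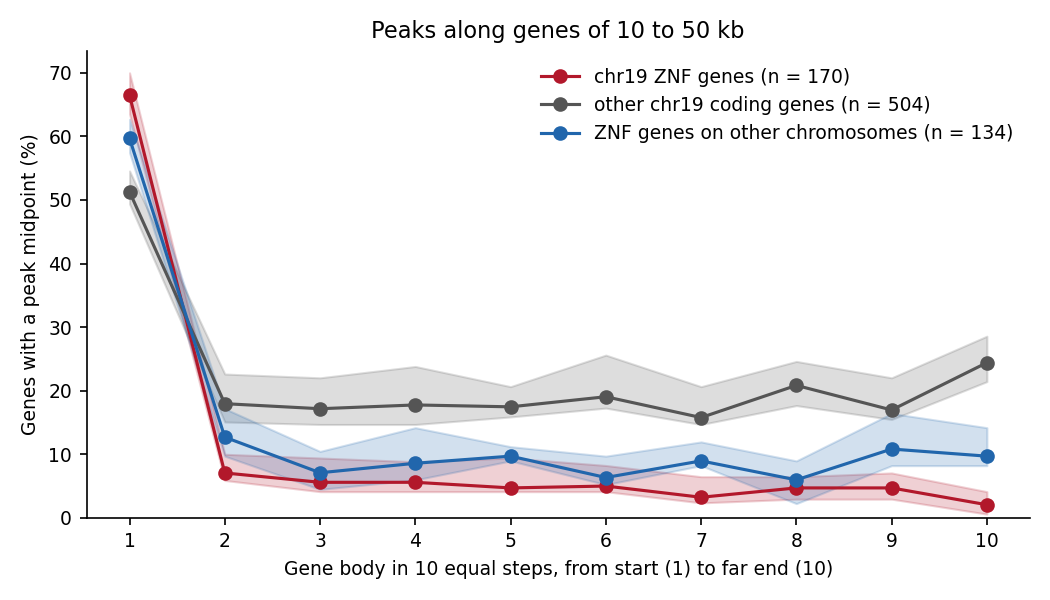
Share of genes of 10 to 50 kb with a peak midpoint (%, y axis) in each of 10 equal steps of the gene body (x axis, 1 at the start). Lines are medians over the 10 lists and bands run from the lowest to the highest list. In the last step the chr19 ZNF genes are at 2.06% and the other chr19 genes at 24.4%.

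The gene interior, more than 1 kb from both ends, was sparse in members. Counted by midpoint, they held between 2.74 interior peaks per 100 kb in aNE_H and 4.62 in DE, and other chromosome 19 genes held between 8.54 in aNE and 12.6 in DE. The median ratio of other genes to members was 2.99, but it was 1.44 against the 86 other coding genes that lie within the ZNF clusters. The ZNF genes on other chromosomes lay between, at 5.20 to 9.44. Between 55.2% (DE) and 70% (pNE) of the members had no interior peak at all, against 39.8% to 46.8% of the other chromosome 19 genes. Peaks covered 4.03% to 4.81% of the members' windows and 6.56% to 8.87% of those of the other chromosome 19 genes. The coding genes within the clusters were close to the members in both values, with 55.8% to 64% of them lacking an interior peak and 3.89% to 4.78% of their windows covered. Over all coding genes the covered share was 3.79% to 5.71%. A single peak in the whole window was the state of 45.6% (DE) to 59.2% (pNE) of the members and of 16.7% to 22.7% of the others.

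Members are longer than other chromosome 19 genes, with a median of 23254.5 bp against 12694 bp, so the comparison was repeated within quartiles of member length. The far-end and interior differences were present in each quartile, with median interior densities of 2.87, 1.66, 1.90 and 4.04 per 100 kb in members and 9.20, 9.86, 10.2 and 9.65 in the other genes from the shortest to the longest quartile. The end peak share did not keep its direction. In the shortest quartile it was 98.4% in members and 73.6% in others, in the second 87.1% and 78.9%, in the third 82.3% and 84.4%, and in the longest 78.6% and 86.6%. Members thus had the higher end peak share in the 2 shorter quartiles only. For starts alone the 4 pairs of medians were 94.8% and 70.1%, 86.5% and 81.9%, 86% and 77.8%, and 78.8% and 84.6%, so members were lower only among the longest genes.

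Interior peaks were fewer after the pluripotent and DE stages. Per 100 kb of interior, members held 4.16 peaks in hPSC, 4.62 in DE, 2.86 in aNE, 2.86 in pNE, 3.25 in aNE_T, 3.08 in aNE_M, 2.74 in aNE_H, 3.02 in pNE_T, 2.96 in pNE_M and 3.62 in pNE_H. Both early lists lay above all 8 later ones. The mean of the 6 day 4 lists was 25.1% below hPSC in members, 15.5% below in other chromosome 19 genes and 4.82% below in ZNF genes elsewhere. Over all coding genes it was above hPSC, at 8.37 against 8.22 per 100 kb.

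List size touches this result, since the lists differ in how many narrow peaks they hold. With every list cut to its 167792 widest peaks, members held 3.24 interior peaks per 100 kb in hPSC, 3.12 in DE, 2.86 in aNE, 2.36 in pNE and 2.06 to 2.87 at day 4, a mean 26.0% below hPSC. Other chromosome 19 genes were then 21.0% below, ZNF genes elsewhere 12.1% and all coding genes 4.19%. Other chromosome 19 genes thus shared the lower density at day 4, and no test of the remaining gap between members and other genes was possible. At equal size aNE (88.3% of hPSC) and pNE (73.0%) were apart, where they were equal as deposited.

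One gene supplied much of the interior. ZNF536, at 487995 bp the longest member (chr19:30225592-30713586), held 66 peaks in hPSC, 82 in DE, 47 in aNE, 53 in pNE, 68 in aNE_T, 66 in aNE_M, 55 in aNE_H, 54 in pNE_T, 48 in pNE_M and 76 in pNE_H. Its sum of 615 was the highest of the family, ahead of ZNF254 and ZNF331, an imprinted gene. Without ZNF536 the members held 3.44 interior peaks per 100 kb in hPSC, 3.69 in DE and 2.09 to 2.72 in the later lists, so the early lists stayed on top. The day 4 mean was then 30.4% below hPSC, and 29.9% at equal list size.

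**Figure D3:**
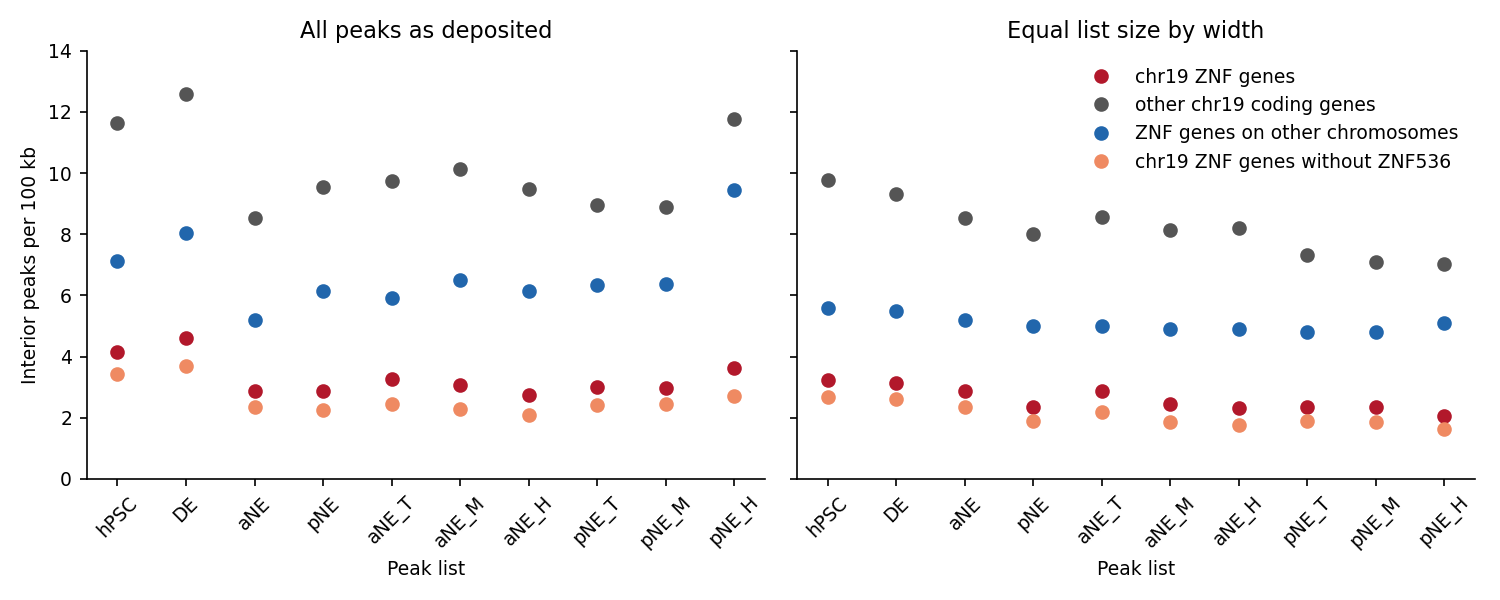
Interior peaks per 100 kb (y axis), counted by midpoint more than 1 kb from both gene ends, in each list (x axis), with all peaks (left) and with the 167792 widest peaks of each list (right). Points are sums over the genes of a class. The chr19 ZNF genes run from 2.74 to 4.62 on the left and from 2.06 to 3.24 on the right, below the other chr19 genes in every list.

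Peaks that overlapped between lists were merged to ask which lists shared them. The interiors of members held 471 merged regions, of which 99 (21.0%) were in all 10 lists and 159 (33.8%) in 1 list. Regions seen in hPSC or DE alone made up 23.4% in members (110), 16.9% in other chromosome 19 genes and 15.6% in ZNF genes elsewhere. Regions seen at day 4 alone made up 21.4%, 21.3% and 31.9%. Without ZNF536 the first share was 24.6% of 333 regions and the second 18.9%. Of the 110 regions of members seen in hPSC or DE alone, 24 were in both lists and the rest in 1 list only. In other chromosome 19 genes 151 of 745 such regions were in both.

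The genes lie in 10 clusters, defined as runs of at least 5 members with gaps of at most 500 kb, and 236 of the 250 are in one. Within the clusters, the 86 other coding genes had an end peak in all lists at 47.7%, in none at 33.7% and in some at 18.6%. All 31 members without an end peak in any list were in clusters, and the 14 members outside had one in all lists (12) or in some (2). Cluster 4, which spans chr19:19668153-24129968 and runs from ZNF101 to ZNF254, held 37 members and 10 of the 31. Cluster 8 held 5 of 41 (ZNF610, ZNF880, ZNF528, ZNF534 and ZNF578), and cluster 9, between ZNF628 and ZNF835, held 0 of 17. The median interior density over the lists was lowest in cluster 4, at 1.28 per 100 kb, with 2.43 per 100 kb in hPSC, 2.77 in DE, 1.53 in aNE, 1.18 in pNE and 0.763 to 1.39 at day 4. Cluster 9 lay higher, at 6.55 in hPSC and 3.68 to 6.14 at day 4. The early lists were not on top in every cluster. In cluster 1 hPSC was at the lowest value, 1.40, and pNE_T was highest at 4.21. Cluster 7 was at 1.76 in hPSC and DE and highest in pNE_M at 2.02. In all other clusters hPSC or DE was the highest list, with DE tied with aNE_M at 4.43 in cluster 5.

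Of the 31, 15 had no peak anywhere in the window in any list, and 16 had peaks inside the gene only. The 15 were 6.0% of all members, a smaller share than the 10.9% (131 genes) among the other chromosome 19 genes. ZNF420, the longest of the 31 (122467 bp), had 769 bp in peaks in DE, the lowest value, and 1327 bp in pNE_M, the highest, all more than 1 kb from its ends. ZNF540 had 986 to 1206 bp and ZNF578 had 1331 to 3234 bp. Such genes can start inside the annotated body: 24 of the 31 have RefSeq promoter entries, and in 13 of them an entry lay in a peak of at least 1 list. ZNF676 and ZNF208, the other long genes of the group, were at 0 bp in every list.

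A run of 9 members in a row makes up most of the 15 genes without any peak. ZNF208, ZNF257, ZNF676, ZNF729, ZNF98, ZNF492, ZNF99, ZNF723 and ZNF728 follow each other, with no other member between them, over 1.06 Mb (chr19:21939815-23003176). The stretch held 6 peaks in hPSC, 8 in DE, 7 in aNE, 4 in pNE, 3 in aNE_T, 2 in aNE_M, 3 in aNE_H, 2 in pNE_T, 4 in pNE_M and 2 in pNE_H, all outside the windows of the 9 genes. Stretches of the same length on either side held 25 to 64 peaks before it and 24 to 53 after it. All 10 members before it had a peak, and 5 of the 6 after it, with ZNF726 as the exception. The stretch was chosen after its values were seen. Whether reads could be placed there as well as next to it was not tested.

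**Figure D4:**
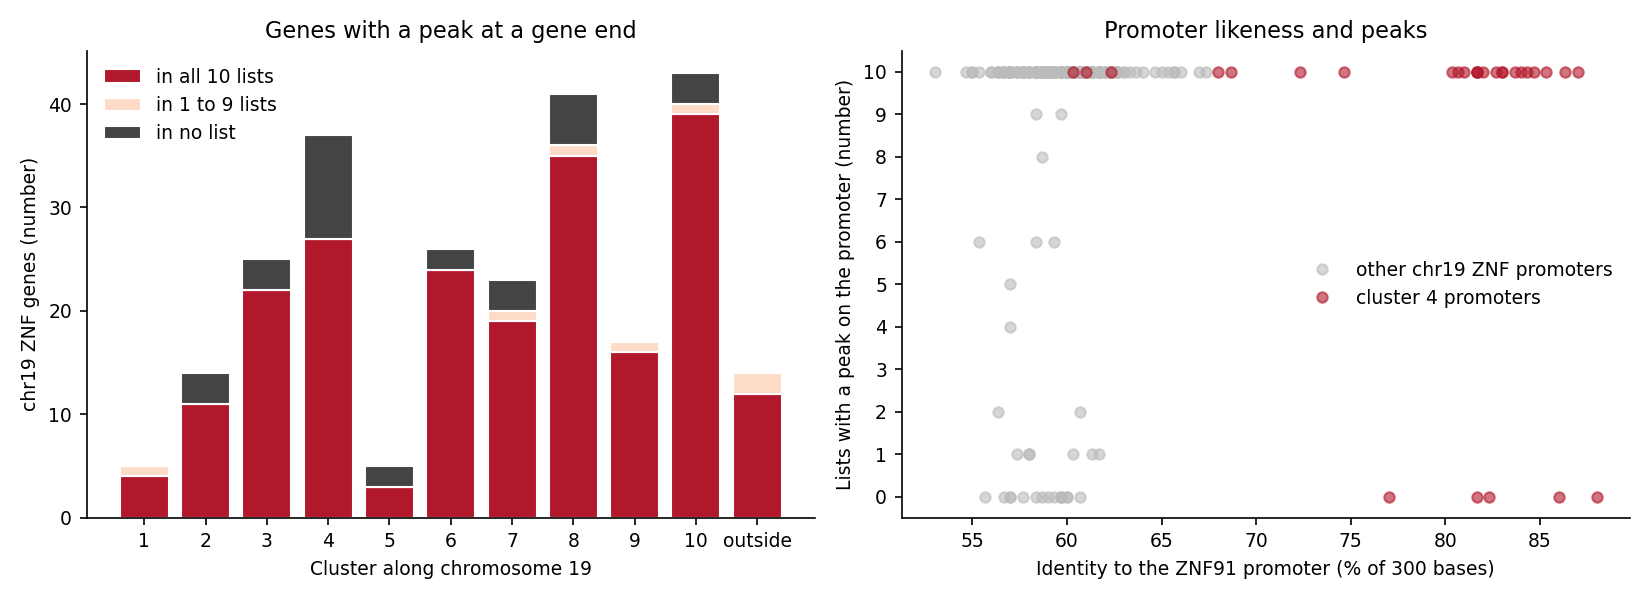
Left, number of chr19 ZNF genes (y axis) per cluster (x axis, numbered along the chromosome, with the 14 genes outside clusters last), coloured by whether a gene end had a peak in all 10, in 1 to 9 or in no list. Right, number of lists with a peak on the promoter (y axis) against identity to the ZNF91 promoter (x axis, % of 300 bases), 1 point per promoter. Above 70% identity 19 promoters sit at 10 lists and 5 at 0.

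Of the 14 genes listed for known roles, 10 (71.4%) had an end peak in all 10 lists, a smaller share than the 84.8% of the whole family, and ZNF536, ZNF541, ZNF534 and ZNF528 did not. ZNF91 had 1350 bp in peaks in hPSC, 1211 in DE, 1146 in aNE, 1159 in pNE, 1245 in aNE_T, 1220 in aNE_M, 1202 in aNE_H, 967 in pNE_T, 1115 in pNE_M and 1009 in pNE_H. ZNF274, the member that binds the far exons of ZNF genes, had 2066 bp in hPSC and 1199 to 1499 bp in the other 9 lists. Each had an end peak in all 10 lists. ZNF808, needed for pancreas development, had 3880 bp in hPSC and 2908 bp in pNE_T, its lowest. ZNF568, whose mouse homologue represses a placental Igf2 transcript, had a single peak in every list of 510 to 700 bp. ZNF350, a partner of BRCA1, likewise had 1 peak per list, of 564 to 900 bp. ZNF534 and ZNF528, neighbours in cluster 8, were at 0 bp in all lists.

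Between hPSC and day 4, covered bases of the window were higher in hPSC than in each of the 6 day 4 lists in 69 members (27.6%) and lower than in each in 25 (10.0%). Over all coding genes these shares were 19.1% and 14.5%, and in other chromosome 19 genes 30.9% and 4.75%. The median difference over members was 25.5 bp in favour of hPSC. The tilt towards hPSC was present in members and in the rest of chromosome 19.

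ZNF675, which encodes an inhibitor of TRAF6 signalling, had the widest gap of the 69. It had 2544 bp in peaks in hPSC, 2163 in DE, 1948 in aNE and 1051 in pNE, and between 988 bp in aNE_H and 1068 bp in aNE_T at day 4. Its 4 peaks in hPSC were 3 in DE and aNE and 1 in each other list, with the promoter peak present in all 10. ZNF565 had 4047 bp in hPSC, 3988 in DE, 3940 in aNE and 2566 in pNE, and 2130 (pNE_M) to 3246 bp (pNE_H) at day 4. ZNF814 had 2874 bp in hPSC and 1197 (pNE_M) to 2463 bp (aNE_T) at day 4. In all 3 the aNE list was closer to hPSC than to the day 4 mean, and the pNE list was closer to day 4, an order that the choice of these genes favours. The largest gaps the other way were smaller. ZNF846 had 2344 bp in hPSC and 2570 to 3088 bp at day 4, ZNF234 had 937 and 1142 to 1638 bp, and ZNF584 had 2348 and 2512 to 3061 bp.

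ZNF541 was also highest early. It had 2259 bp in hPSC and 2829 in DE, then 513 in aNE, 766 in pNE, 1572 in aNE_T, 1076 in aNE_M, 905 in aNE_H, 1200 in pNE_T, 515 in pNE_M and 1552 in pNE_H. Its 12 peaks in DE were the most and its 2 in pNE_M the fewest, and both early lists exceeded all later ones.

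Between the 2 day 2 lists, a single list against a single list, aNE covered more bases than pNE in 124 members (49.6%) and fewer in 110 (44.0%), against 36.4% and 52.9% of all coding genes. The median difference over members was 0 bp. ZNF565 (1374 bp more in aNE), ZNF814 (1030 bp) and ZNF675 (897 bp) differed most in favour of aNE. ZNF787 (2469 bp in aNE, 3274 in pNE), ZNF850 (1298 and 1922 bp) and ZNF667 (164 and 718 bp) differed most in favour of pNE. In ZNF667 the day 4 lists from either origin, at 465 to 957 bp, lay above the aNE value.

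At day 4, origin separated few members. All 3 aNE-derived lists covered more bases than all 3 pNE-derived ones in 10 members (4.00%), and fewer in 9 (3.60%), against 3.28% and 7.0% of all coding genes. In the other chromosome 19 genes the shares were 5.00% and 1.92%, so the members' second share lay below that of all coding genes and above that of their chromosome. ZNF296, known to interact with pluripotency factors, led the first group with 1782 bp in aNE_T, 1632 in aNE_M and 1823 in aNE_H, against 577 in pNE_T, 862 in pNE_M and 1460 in pNE_H. Its pNE value at day 2, 1794 bp, was as high as its aNE value of 1760 bp. ZNF83 (mean 4145 and 3526 bp) and ZNF808 (3313 and 2937 bp) followed. In the other direction were ZNF611 (2809 and 3494 bp), the readthrough gene ZNF816-ZNF321P (3277 and 3926 bp) and ZNF773. ZNF773 had 882 bp in aNE_T, 880 in aNE_M and 830 in aNE_H, against 1456 in pNE_T, 1623 in pNE_M and 928 in pNE_H, so pNE_H stood close to the aNE-derived lists.

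**Figure D5:**
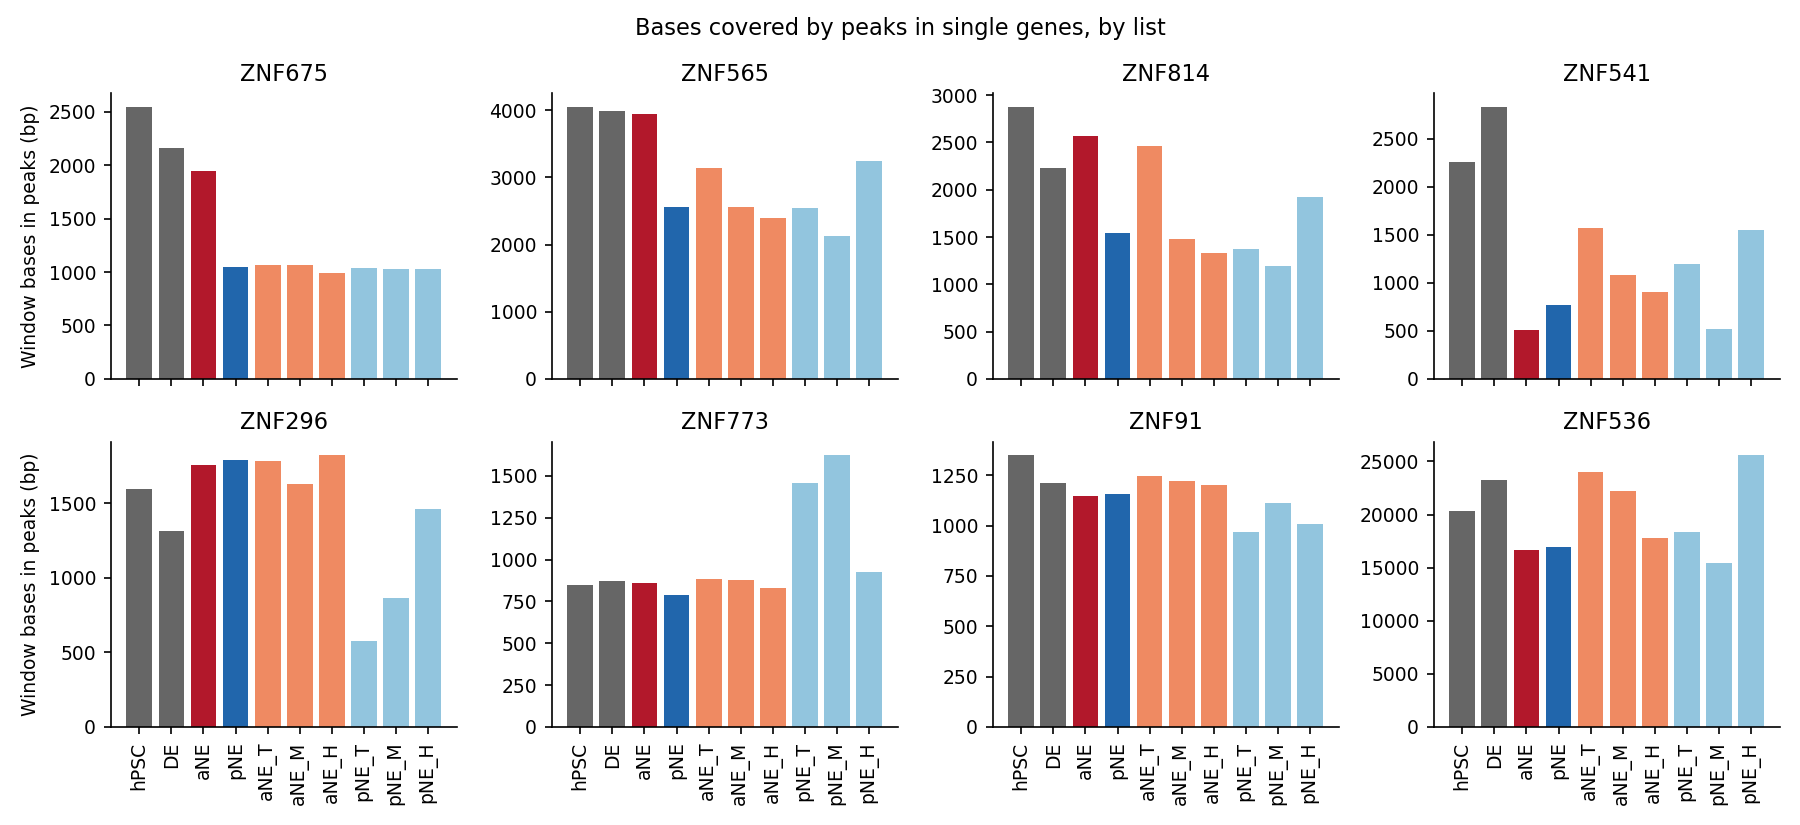
Bases of the gene window covered by peaks (bp, y axis, from 0, with its own scale per gene) in each list (x axis) for 8 genes. Bars are single lists without an error. ZNF675 drops from 2544 bp in hPSC to between 988 and 1068 bp at day 4, and ZNF296 is lowest in pNE_T at 577 bp.

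The partners of KRAB zinc finger repression were counted as a list of 18 genes. An end peak stood in all 10 lists at 16 of them, beside 75.5% of all coding genes, and nothing particular to the list is read from it. Among the 16 were SETDB1, the H3K9 methyltransferase, which had between 688 bp (pNE_M) and 1165 bp (aNE) in peaks, and DNMT1, the maintenance DNA methyltransferase, with 1213 to 1924 bp. UHRF1, which guides DNMT1, had no end peak in any list but 63 peaks inside the gene over the 10 lists. TRIM28 had none, as it lies past the last chromosome 19 peak.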

How the data were processed

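The deposited files were 10 peak lists of 3 columns, read as other values: sequence name, peak start and peak end, counted from base 0, with no header and no score. The submitters' processing notes name FastQC, Bowtie2, MACS2, bedtools, featureCounts, edgeR, deepTools and the build hg38, without versions or settings, so how the authors combined the 3 replicates and which threshold they used is not given in the sources used here. A looser threshold in 1 list would raise its peak number and every share. Libraries made from 50000 cells each were grouped by their labels, and each list was assigned to the group its name carries.

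Genes, symbols and positions came from RefSeq GRCh38.p14, and strand and promoter sequences from its promoter table, which holds 219 of the 250 members. Members share windows: 64 overlap another member, and the windows merge into 214 stretches of 7.55 Mb that held 403 to 548 distinct peaks per list. End, far-end and interior peaks were counted with Python 3.11.15, numpy 2.4.6, pandas 2.3.3 and statsmodels 0.14.6, and the code was tested on simulated lists. Promoters were aligned globally with Biopython 1.88. Intervals are at 95% and cover the sampling of genes only. No p-value was computed.

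Named genes were a list with known roles, the 5 with the most peaks, the 3 per direction with the largest difference in covered bases between lists that do not overlap, and up to 5 without an end peak or with one in 1 list. Members and lists were chosen with earlier results of these data known. Alternatives were windows of 500 bp and 2 kb, equal list size by width, the wider part of each list, peak midpoints, fixed peaks of 500 bp, other sets of compared genes and length quartiles. Peaks on alternate scaffolds were left out of gene counts.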

Additional observations from a re-analysis of the deposited data

Results flagged for a closer look

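Between hindbrain and telencephalon medium the members differed in opposite directions in the aNE-derived and the pNE-derived lists, each the difference of single lists. The share with an end peak was −0.4 points in the aNE-derived lists and 1.6 points in the pNE-derived ones. Mean peaks per gene differed by −0.12 and 0.192, interior peaks per 100 kb by −0.51 and 0.598, and the covered share of the windows by −0.497 and 0.48 points. Interior density took the same signs in other chromosome 19 genes, at 9.73 in aNE_T and 9.47 in aNE_H, and 8.95 in pNE_T and 11.8 in pNE_H. Over all coding genes the 4 values were 7.49, 7.47, 7.89 and 11.4, so these signs were not particular to the members. These differences were not tested, since each medium and origin has 1 list. With lists of equal size only the covered share of the members' windows kept opposite signs, at −0.516 and 0.288 points. pNE_H is the longest list, with 313095 peaks.

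Peaks on alternate and patch scaffolds of chromosome 19 lay outside the gene counts. They made up 9.94% of the chromosome 19 peaks in hPSC (690 peaks, Wilson 95% interval 9.26% to 10.7%), and 7.40% in pNE_H, the lowest share. Which genes they belong to was not analysed here.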

How the results depend on the processing

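No paired analysis was possible because each group has 1 peak list and no list per replicate, and for the same reason no replicate could be left out. Of 118 values under other settings for 15 results, 102 stayed within the interval or within 1.5 times the value given, 14 moved and 2 reversed. Differences between lists in the end peak share were close to 0 and were judged by intervals over genes. Such intervals do not measure differences between lists, so their staying within them says little. The share in aNE minus pNE changed sign, from 0.8 points to −0.8 in the wider part of each list, and still counted as within its interval. The results on far ends and interiors were put through the settings after seeing the data. The end peak share of members minus that of other chromosome 19 genes, 8.37 points, was 24.9 in the shortest length quartile and reversed to −2.19 in the next to longest and −8.49 in the longest. Against only the other coding genes within the clusters it was 31.6, the far-end difference −20.5 points and the interior ratio 1.44. The far-end share of members (7.76%) was 4.11% with 500 bp windows, 13.7% with 2 kb windows and 4.57% by peak midpoints, and the far-end difference −20.0 and −41.1 points with those windows and −21.7 in the longest quartile. The interior ratio was 6.65 and 5.31 in the middle quartiles. Interior density of members, 3.05 per 100 kb, was 1.74 in the wider part of each list, and covered share 2.85% with fixed peaks of 500 bp. Peak midpoints give no covered bases, and a set of other genes without C2H2 proteins was not run. Read depth, replicate spread and peak height are unknown, so a small difference between lists cannot be told apart from a difference in calling.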
